A study of Mus musculus with 8 samples.

Results

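Low-threshold mechanoreceptors (LTMR) are the sensory neurons of the dorsal root ganglia (DRG) that detect light touch. The expression of 7 transcription factor genes of these neurons and of their close paralogues, Maf, Mafa, Shox2, Cux2, Mef2a, Mef2c and Mef2d, was followed in DRG of embryos overexpressing Dach1. They were taken by symbol from the 55414 genes counted in each library, and all 7 passed the filter on low counts. The set was chosen by its read counts in the comparison of AD1 OE with Control embryos, Mafa and Shox2 being lower and Mef2c higher in AD1 OE. The differences of the 7 genes between genotypes are therefore given as a description, with no test.

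Poly(A) RNA of whole DRG, holding neurons and glia, was sequenced from mouse embryos at E18.5, with 4 libraries per genotype. AD1 OE embryos (AdvillinCre/+;Rosa26Dach1/+) carried Cre at 1 Advillin allele, active in somatosensory neurons, and a Rosa26 allele from which Dach1 and EGFP are transcribed once Cre has excised a stop cassette. Control embryos (Advillin+/+;Rosa26Dach1/+) carried the same Rosa26 allele with the stop in place and no Cre. The comparison asked what follows when Dach1, a transcription factor normally lost from most somatosensory neurons before birth, is expressed in all of them. Several features limit the model. Per the study, Dach1 is first refined normally in AD1 OE and only later re-expressed broadly, pups die around birth, and the Rosa26 line was of mixed C57Bl/6J and CD1 background. AD1 OE embryos also have 1 intact Advillin allele only, so the loss of the other cannot be told apart from the gain of Dach1. The labels name replicates only. The study counts the samples of this comparison as embryos, as many per genotype as there are libraries. On that account, p-values measure the spread between embryos.

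Large Maf proteins (Maf, Mafa) are basic leucine zipper factors. In the DRG, Mafa marks early-born Ret-positive mechanoreceptors, and Maf is required for touch receptor neurons and their end organs in the skin to develop normally. Shox2, a paired-like homeobox factor, promotes the TrkB-positive LTMR fate, and Cux2, a Cut homeobox factor best known from upper-layer cortical neurons, also marks sublineages of DRG neurons. Mef2 proteins are MADS-box factors that couple calcium signals to transcription: class IIa histone deacetylases hold them inactive, and calcium-dependent kinases and the phosphatase calcineurin release them.

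The start sites of these genes are shown first, since Mef2 and Cut factors are among the products of the set and letters resembling their sites occurred in 2 of its promoters. RefSeq promoters (GRCm38.p6, 250 bases before to 50 after each start) were matched for 5 of the 7 genes, not for Maf and Mafa, and gave 8 promoters, of which Mef2c had 3 and Cux2 had 2. Each line below prints 30 bases, 5′ to 3′ on the gene's strand, and capitals mark a match to a searched motif. They cover chr7:67372849-67372878 (minus strand, from base -20 to base 10 around the start) for Mef2a and chr5:122047880-122047909 (minus strand, bases -84 to -55) for the second Cux2 promoter. For Shox2, the 30 bases just before the start lie at chr3:66981772-66981801 (minus strand). For Mef2c, 2 of the promoters are shown, at chr13:83523626-83523655 and chr13:83573577-83573606 (plus strand).
Mef2a: ctggccgaggcctgactcCTAAAAATAGcc
Cux2, second promoter: gggctcatctgaATCGATataaagaggagg
Shox2: ctccttcctcctcctcctcctcgtcctcct
Mef2c, middle promoter: ccaaaagctttatacattctgggcgggcag
Mef2c, last promoter: tccggtaagccgatagtgccacaggtctca

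Both strands were searched for 4 motifs. The MEF2 element was found in the Mef2a promoter alone among the 8 and in 3.19% of 32851 RefSeq promoters of the same length. The Cut site ATCGAT was found in the second Cux2 promoter alone, against 0.925% of all promoters. Neither TGCTGAC, the core of the Maf recognition element, nor the paired-like palindrome (TAAT and ATTA, 3 bases apart) was found in the 8 promoters, and they occur in 4.67% and 0.487% of all. No matches overlapped, and a match is a description of the letters only. Base composition differed widely among the members. The first Cux2 promoter held 80.3% GC and the Mef2d promoter 72%, whereas the 2 Mef2c promoters shown held 47% and 48.3%, below the median of 52.7% over all promoters. Shox2 lay close to that median at 53.3%.

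The libraries held from 22339059 to 44025625 counts, with the depths of the genotypes overlapping, and replicates differed by more than counting noise (chi-square per degree of freedom 4.37 to 12.1). Levels are given as CPM, scaled between libraries by TMM. Dach1 reached 95.9 ± 5.28 in AD1 OE against 32.6 ± 1.64 CPM (SD, n = 4), or 1.56 as a log2 fold change (quasi-likelihood test of edgeR, adjusted p = 1.77e-08 by Benjamini-Hochberg), and Avil, the gene that carries Cre, was at 464 ± 12 in AD1 OE against 892 ± 35.1 CPM. Xist and Y-linked transcripts showed that AD1 OE replicates 1, 2 and 4 were male and replicate 3 female, whereas Control replicate 4 was male and replicates 1 to 3 female. Sex and genotype were therefore partly confounded, and values within each sex are given for the genes that differed. Separation within either sex tells little, since 1 of the groups is a single library each time. For Maf, Mef2a and Mef2d the male Control library also lay outside the male AD1 OE range. The female AD1 OE library lay within the female Control range for these genes. Summed markers of neurons lay between 6800 and 7360 CPM in AD1 OE and between 7150 and 7390 CPM in Control, overlapping through AD1 OE replicate 3 alone. No summed list of neuron, glia, muscle, macrophage, endothelium, cartilage, fibroblast, spinal cord or sympathetic neuron markers separated the genotypes completely. Single markers outside cartilage that did not overlap were Elavl4 of neurons (log2 fold change 0.14), Fabp7 of glia (-0.26) and Pdgfra of fibroblasts (0.23). These missed the thresholds (edgeR adjusted p = 0.0232 or higher), and 13.0% of all genes tested did not overlap. Among the cartilage markers, however, Hapln1 was lower in AD1 OE, at 11.1 ± 0.818 against 20.2 ± 4.22 CPM (log2 fold change -0.87, edgeR adjusted p = 0.00139), with no overlap, and Acan was at 6.98 ± 2.41 against 34.6 ± 22.4 CPM (edgeR adjusted p = 0.0231), with libraries from 4.32 to 10.1 CPM against 4.23 to 57.8 CPM. The cartilage markers summed to 104 to 143 CPM in AD1 OE and 122 to 202 CPM in Control. The other 4 of the 6 cartilage markers had adjusted p-values of 0.545 or higher, and the part of cartilage in the results was not tested. Skeletal muscle markers ran from 108 to 589 CPM in AD1 OE, with the highest sum in replicate 3, and from 134 to 380 CPM in Control, and none of the 7 muscle markers had an unadjusted p under 0.05.

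Of the 7 genes, 2 met the thresholds of the study (adjusted p under 0.005 and absolute log2 fold change over 0.25) as lower in AD1 OE, Mafa and Shox2, and 1 as higher, Mef2c. Over all 17721 genes tested, 1.78% met both thresholds as lower, 0.784% as higher and 2.57% in either direction. The libraries of the genotypes did not overlap for 3 of the 7 genes, Mafa, Shox2 and Mef2c, against 13.0% of all genes tested. Because of the selection, nothing is read from this count either. Of these 3 genes, Mef2c had the smallest difference, at a log2 fold change of 0.38. Next by size was Cux2, at 0.33, which passed the limit on the fold change but not that on the adjusted p. The other 3 genes lay closer to 0 than 0.25.

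**Figure D1:**
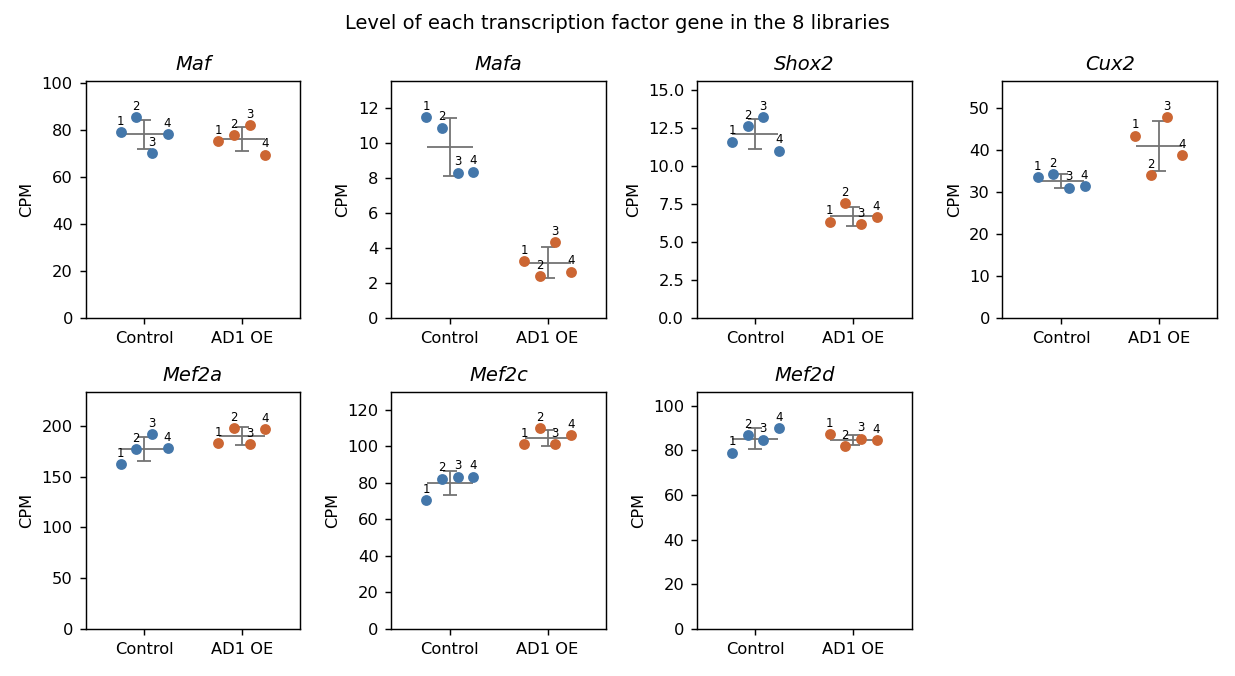
Level of each of the 7 genes (vertical axes in CPM, starting at 0) in the Control and AD1 OE libraries; numbered points are replicates and grey bars the mean ± SD (n = 4). Mafa and Shox2 lie lower and Mef2c higher in every AD1 OE library than in any Control library, Cux2 overlaps through AD1 OE replicate 2 and Mef2a through Control replicate 3, and Maf and Mef2d overlap broadly.

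Mafa was the gene of the set with the widest difference. In AD1 OE replicates 1 to 4 it was at 3.28, 2.41, 4.36 and 2.66 CPM. In Control replicates 1 to 4 it was at 11.5, 10.9, 8.33 and 8.39 CPM. The highest AD1 OE library thus stayed well below the lowest Control library. The means were 3.18 ± 0.87 in AD1 OE against 9.77 ± 1.64 CPM in Control (SD, n = 4), a log2 fold change of -1.61 (standard error, SE, 0.172), and AD1 OE retained 32.5% of the Control level. In bulk RNA, fewer neurons with a transcript and less of it per neuron cannot be told apart. Among all 8765 tested genes that were lower in AD1 OE, Mafa had rank 46 by size. It rested on 54 to 349 counts per library, the fewest of the set. Within each sex the order was the same. The female AD1 OE library, at 4.36 CPM, lay below the 3 female Control libraries (8.33 to 11.5 CPM), and the 3 male AD1 OE libraries (2.41 to 3.28 CPM) lay below the male Control library (8.39 CPM).

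Mafa is also the gene that varied most between replicates. Its within-group SD was 0.313 on the log2 scale, larger than in 95.3% of the 1000 genes nearest to it in mean level, and its biological coefficient of variation was 16.1%, against a common value of 8.22% over all genes. In AD1 OE, replicate 3 stood highest and replicate 2 lowest, 0.49 above and 0.35 below the group mean on the log2 scale. Control split into replicates 1 and 2, above the mean by 0.25 and 0.17, and replicates 3 and 4, below it by about as much. AD1 OE replicate 3 was the female library and the one with the most muscle RNA, whose part in its value was not tested. As the highest library of its group, it could only widen the difference when left out, to a log2 fold change of -1.77. With a sex score as a covariate the log2 fold change was -1.39, the smallest difference of all alternatives.

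Maf, the more abundant of the pair per exon length, did not share this difference. It was at 75.2, 77.9, 82.2 and 69.6 CPM in AD1 OE replicates 1 to 4 and at 79, 85.5, 70.2 and 78.3 CPM in Control. The ranges overlapped almost fully, with the lowest library of each genotype near 70 CPM. The means were 76.2 ± 5.29 and 78.2 ± 6.26 CPM (SD, n = 4), and the log2 fold change of -0.04 (SE 0.063) changed sign in 2 of 16 alternatives. The standard error (SE) of Mafa was larger (0.172).

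The composition of the pair differed accordingly. Measured per length of exon as RPKM (counts scaled to exon length and library size), Mafa made up 30.4%, 27.7%, 26.3% and 24.4% of the summed Maf and Mafa level in Control replicates 1 to 4. In AD1 OE its share was 11.6%, 8.5%, 13.8% and 10.3%. No AD1 OE library reached a share seen in Control. The mean share was 11 ± 2.23% in AD1 OE and 27.2 ± 2.53% in Control (SD, n = 4), and the summed level was 10.4 ± 0.883 and 13.1 ± 1.24 RPKM, with AD1 OE replicate 3 and Control replicate 3 both at 11.6 RPKM. This share restates the change of Mafa beside a nearly equal Maf and is no separate evidence.

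**Figure D2:**
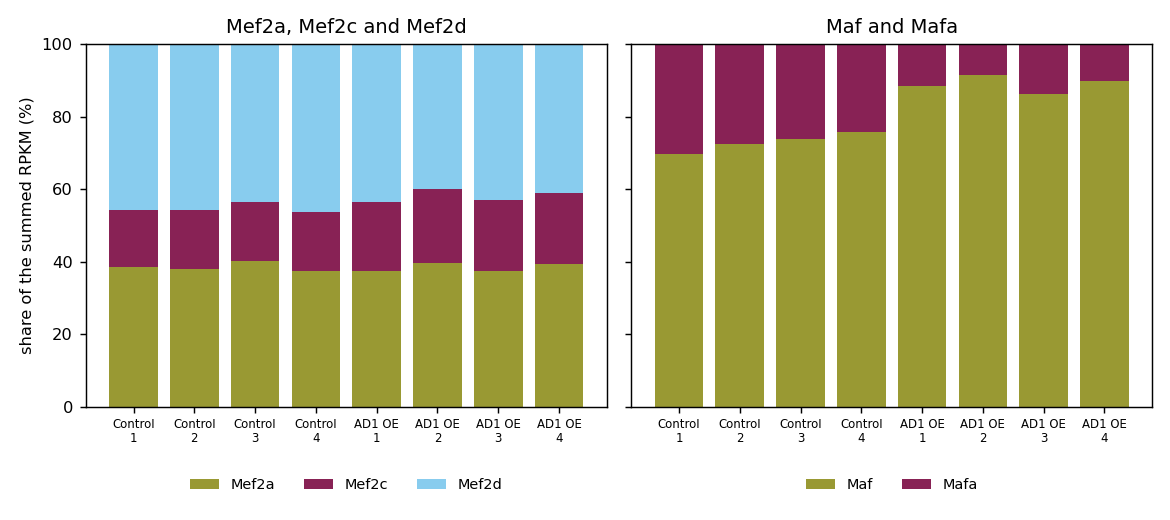
Share of each gene (vertical axis, %) in the summed RPKM of its family in each library, for Mef2a, Mef2c and Mef2d on the left and Maf and Mafa on the right. The Mafa share is 24.4% to 30.4% in Control and 8.5% to 13.8% in AD1 OE, and the Mef2c share is 15.6% to 16.4% in Control and 19.2% to 20.4% in AD1 OE.

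The other Maf proteins and their basic leucine zipper partners were examined as a list of 11 genes, of which 10 were tested and Nrl, a rod photoreceptor factor, was below the filter. None met the thresholds with edgeR, DESeq2 or limma-voom, and 1 had an unadjusted edgeR p under 0.05 (Nfe2l2), against 18.6% of all genes tested. The median log2 fold change of the list was 0.015, against 0.0018 over all genes tested. The small Maf gene Maff gave a log2 fold change of -0.12 (edgeR adjusted p = 0.41). Nfe2l2, which partners small Maf proteins in the oxidative stress response, gave 0.14 (edgeR adjusted p = 0.228).

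Shox2 was the other gene of the set that was lower in AD1 OE. It was at 6.35, 7.57, 6.16 and 6.66 CPM in AD1 OE replicates 1 to 4. In Control it was at 11.6, 12.6, 13.2 and 11 CPM. All AD1 OE libraries lay below all Control libraries, and the replicates of each genotype sat close together. The means were 6.69 ± 0.627 and 12.1 ± 0.962 CPM (SD, n = 4), a log2 fold change of -0.86 (SE 0.087), and 55.3% of the Control level remained. Its rank was 176 of the 8765 lower genes. Unlike that of Mafa, its within-group SD, 0.122 on the log2 scale, was near the middle of genes at its level (percentile 49.8). The log2 fold change stayed between -0.92 and -0.81 in all 16 alternatives. Within females, AD1 OE was at 6.16 CPM and Control at 11.6 to 13.2 CPM, and within males AD1 OE was at 6.35 to 7.57 CPM and Control at 11 CPM.

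Shox2 shares 153 exon bases with Rsrc1 on the opposite strand, a broadly expressed gene of RNA splicing, so that its counts are uncertain to the extent that strand was not used. Rsrc1 was at 47.9 ± 1.21 in AD1 OE against 48.8 ± 0.375 CPM in Control, with a log2 fold change of -0.03 (edgeR adjusted p = 0.782). The level of the partner gene therefore did not move with that of Shox2. The nearest tested genes on either side, Veph1 and Mlf1, gave log2 fold changes of -0.5 (edgeR adjusted p = 0.298) and 0.05 (edgeR adjusted p = 0.885).

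Cux2 was higher on average in AD1 OE, with overlapping libraries. In AD1 OE replicates 1 to 4 it was at 43.5, 34.1, 47.9 and 38.9 CPM. In Control it was at 33.7, 34.4, 31.1 and 31.5 CPM. The genotypes overlapped by a single library, AD1 OE replicate 2, which was below Control replicate 2 and above the other 3. The means were 41.1 ± 5.94 and 32.7 ± 1.63 CPM (SD, n = 4), and the log2 fold change was 0.33 (SE 0.089). The spread came from AD1 OE, and the within-group SD of 0.157 on the log2 scale exceeded that of 95.2% of genes at a like level. Within each sex the groups did not overlap, with 47.9 CPM against 31.1 to 34.4 CPM in females and 34.1 to 43.5 CPM against 31.5 CPM in males, where 1 of the groups is a single library each time. The log2 fold change ranged from 0.27 without AD1 OE replicate 3 to 0.43 with a sex covariate.

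In the 4 AD1 OE libraries, Cux2 and Mafa had the same order, although Cux2 was higher and Mafa lower than in Control. Replicate 3 was highest for both, followed by replicates 1 and 4, and replicate 2 was lowest. The deviations from the group mean on the log2 scale ran from 0.23 to -0.26 for Cux2 and from 0.49 to -0.35 for Mafa. Shox2 and Mef2a shared the reverse order, from replicate 2 through replicates 4 and 1 to replicate 3. Shox2 was at 0.18 in replicate 2 and at -0.11 in replicate 3. With only 4 libraries such shared orders can arise by chance, and no link between these genes was tested. Replicate 3 was also the female library and the richest in muscle markers, whose part in these orders was not tested.

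Cut and paired-like homeobox relatives of Cux2 and Shox2 formed a list of 12 genes, of which 10 were tested. None met the thresholds with edgeR, DESeq2 or limma-voom, while 4 had an unadjusted edgeR p under 0.05, against 18.6% of all genes tested. The median log2 fold change was -0.027. Cux1, the only other Cux gene, was at 90.2 ± 2.74 and 92.4 ± 1.57 CPM (log2 fold change -0.04, edgeR adjusted p = 0.636). Onecut3 and Onecut1, Cut factors of spinal and sensory lineages, gave -0.65 (edgeR adjusted p = 0.0706) and 0.52 (edgeR adjusted p = 0.177).

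Mef2c was the only member of its family whose libraries separated the genotypes. It was at 101, 110, 101 and 106 CPM in AD1 OE replicates 1 to 4. In Control it was at 70.3, 82.2, 83.4 and 83.4 CPM. Every AD1 OE library lay above every Control library, and Control replicate 1 was apart from the other 3. The means were 104 ± 4.12 and 79.8 ± 6.37 CPM (SD, n = 4), a log2 fold change of 0.38 (SE 0.055), or 131% of the Control level. Its rank was 671 of the 8956 genes higher in AD1 OE, so that in size it was far less exceptional than Mafa or Shox2. Without Control replicate 1 the log2 fold change was 0.33, the lowest of 16 alternatives. With the sex score it was 0.35, and in that fit alone Mef2c missed the limit on the adjusted p. Females were at 101 CPM in AD1 OE and at 70.3 to 83.4 CPM in Control, and males at 101 to 110 CPM and 83.4 CPM.

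Mef2a and Mef2d, the paralogues with the highest levels per length of merged exons, differed little. Mef2a was at 183, 198, 182 and 197 CPM in AD1 OE and at 162, 177, 192 and 178 CPM in Control, so that the genotypes overlapped through Control replicate 3 alone, and its log2 fold change was 0.10 (SE 0.051.) Mef2d was at 87.2, 82.1, 85.3 and 84.5 CPM in AD1 OE and at 79, 87, 84.9 and 90.1 CPM in Control. It was the steadiest gene of the set, with a biological coefficient of variation of 4.73%, and its log2 fold change of -0.01 (standard error 0.043) changed sign in 4 of 16 alternatives. All 3 Mef2 genes had their lowest Control value in replicate 1, at 0.18, 0.13 and 0.11 below the group mean on the log2 scale for Mef2c, Mef2a and Mef2d. That library was the shallowest of Control and had the highest sums of sympathetic (14.6 CPM) and spinal cord (8.23 CPM) markers. Of these 6 and 7 markers, 2 and 3 were tested and none met the thresholds with edgeR, DESeq2 or limma-voom, and their part in the value was not tested.

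**Figure D3:**
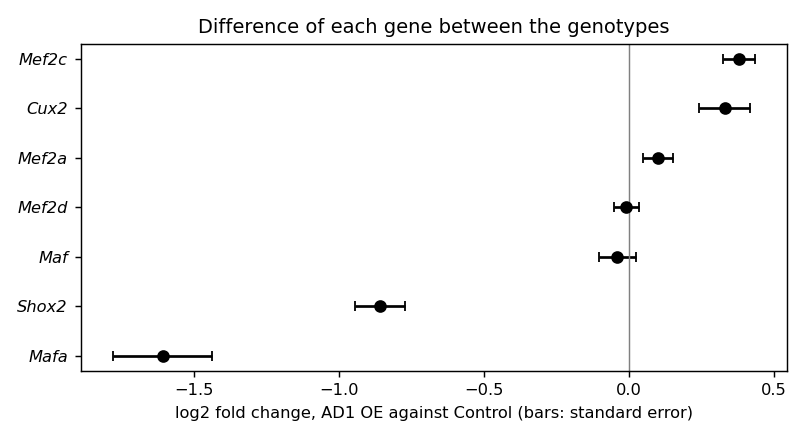
Log2 fold change of each gene between AD1 OE and Control (horizontal axis), with bars for the standard error of the fit (4 libraries per genotype). Mafa (-1.61) and Shox2 (-0.86) lie left of 0, Mef2c (0.38) and Cux2 (0.33) right of it, and Mef2d and Maf are within 1 standard error of 0.

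Relative to its paralogues, Mef2c took a larger share of the family. Its share of the summed Mef2a, Mef2c and Mef2d RPKM was 19.2%, 20.4%, 19.5% and 19.7% in AD1 OE replicates 1 to 4 and 15.6%, 16.4%, 16.3% and 16.3% in Control. These ranges were narrow and did not overlap, and Control replicate 1 was again lowest. The Mef2d share was 42 ± 1.64% in AD1 OE and 45.4 ± 1.21% in Control (SD, n = 4), touching at 43.6%, and the Mef2a share 38.4 ± 1.16% and 38.5 ± 1.17%. The summed level was 33.8 ± 0.583 RPKM in AD1 OE and 31.4 ± 1.82 RPKM in Control, each AD1 OE library being above each Control library. The shares restate the change of Mef2c, for which the gene was chosen, and are no separate evidence. The sum contains that change too, and both measures depend on the exon length used.

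The upstream regulators of Mef2 proteins, with the fourth family gene Mef2b, made a list of 18 genes, of which 17 were tested and Mef2b was below the filter. Of these, 2 were reduced and none increased in AD1 OE, also with DESeq2 and limma-voom, against 1.78% lower and 0.784% higher over all genes tested. An unadjusted p under 0.05 was found for 5 (18.6% over all genes tested). The median log2 fold change of the list was 0.0074, close to that of all genes. Both reduced genes encode kinases that relieve the repression of Mef2 by histone deacetylases. Camk4, a calcium and calmodulin-dependent kinase, fell from a Control level of 20.6 ± 1.99 to 12.9 ± 1.6 CPM (SD, n = 4), a log2 fold change of -0.67 (SE 0.097, edgeR adjusted p = 0.00112). Prkd1, a protein kinase D, fell from 36 ± 1.77 to 26 ± 1.13 CPM, a log2 fold change of -0.47 (SE 0.054, edgeR adjusted p = 0.000196). For both the highest AD1 OE library was below the lowest Control library, at 14.2 against 17.9 CPM for Camk4 and 27.1 against 34.4 CPM for Prkd1. Prkd1 met the thresholds in all 16 alternatives. Camk4 missed them once, without Control replicate 2 (log2 fold change -0.62, edgeR adjusted p = 0.00541).

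The other regulators gave small values. The calcineurin subunit gene Ppp3ca was at 420 ± 19.9 in AD1 OE against 467 ± 22.9 CPM in Control (log2 fold change -0.16, edgeR adjusted p = 0.1). The deacetylase genes Hdac4, Hdac5, Hdac7 and Hdac9 gave log2 fold changes of 0.06, -0.01, 0.05 and -0.12 (edgeR adjusted p = 0.349 or higher).

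Genes known as Mef2 targets from neurons and muscle were measured as a list of 9, all tested. None met the thresholds with edgeR or limma-voom and 1, Homer1, with DESeq2. An unadjusted edgeR p under 0.05 was found for 4, against 18.6% of all genes tested. The median log2 fold change was -0.048. Homer1, which encodes a synaptic scaffold, was at 35.7 ± 1.69 in AD1 OE against 29.7 ± 1.42 CPM in Control (log2 fold change 0.26, edgeR adjusted p = 0.0116). The fit without a filter on low counts also placed Homer1 past the thresholds. Arc, an activity-induced synaptic gene at 1.78 ± 0.329 and 2.49 ± 0.261 CPM, gave -0.47 (edgeR adjusted p = 0.118), and Klf4 gave 0.18 (edgeR adjusted p = 0.504). Their values lay on both sides of 0.

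Other genes of mechanoreceptors, from a list of 19 receptors, channels and markers, were compared with the 7 factors. Of the 19, all tested, 1 was reduced and none increased (3 and 2 with DESeq2, 1 and none with limma-voom), while 13 had an unadjusted p under 0.05 (18.6% of all genes tested had one) and 10 did not overlap between genotypes (13.0% of all genes tested). Over all genes tested, 1.78% were lower by the same thresholds. The median log2 fold change was -0.066, with values on both sides of 0. Gfra2, the neurturin co-receptor that is expressed with Ret and Mafa in early mechanoreceptors and also in non-peptidergic nociceptors, fell from 90.8 ± 4.87 to 60.5 ± 6.57 CPM (SD, n = 4), a log2 fold change of -0.58 (SE 0.068, edgeR adjusted p = 0.00023). Its libraries ranged from 55.8 to 70 CPM in AD1 OE and from 85.9 to 97.4 CPM in Control. It met the thresholds in all 16 alternatives.

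Values short of the thresholds ran in both directions in the same list. Colq, which encodes the collagen tail of acetylcholinesterase, was at 3.22 ± 0.191 and 2.12 ± 0.25 CPM (0.60, edgeR adjusted p = 0.0124). The neurotrophin receptor genes Ntrk2 (TrkB) and Ntrk3 (TrkC) gave log2 fold changes of 0.12 (edgeR adjusted p = 0.189) and 0.30 (edgeR adjusted p = 0.0171). Ret gave -0.12 (edgeR adjusted p = 0.199), and the touch channel gene Piezo2 gave 0.21 (edgeR adjusted p = 0.0343). On the lower side, Cntnap2 gave -0.30 (edgeR adjusted p = 0.00795), Nefh -0.24 (edgeR adjusted p = 0.0116) and Calb1 -0.32 (edgeR adjusted p = 0.0217). On the higher side, Pou4f2, a homeobox factor of sensory neurons, gave 0.34 (edgeR adjusted p = 0.0204). Among the genes that DESeq2 placed past the thresholds were Gfra2 and Cntnap2 as lower and Ntrk3 and Pou4f2 as higher. Ntrk2, Ntrk3, Ret, Piezo2, Cntnap2, Nefh, Calb1 and Pou4f2 were named after their values were seen.

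**Figure D4:**
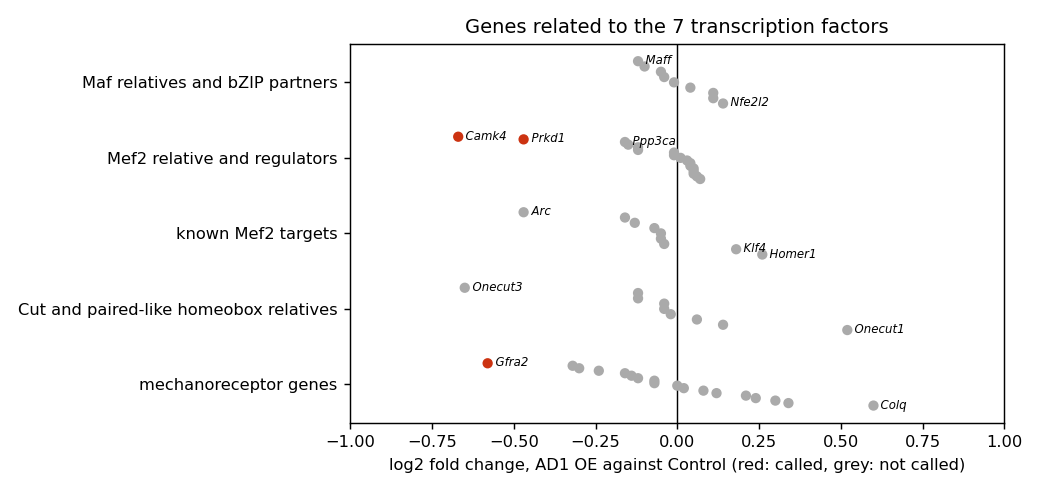
Log2 fold change between AD1 OE and Control (horizontal axis) of the tested genes in 5 lists (rows), less those not reported here, red where the thresholds were met and grey where not; genes named by the fixed rule are labelled. The red points are Camk4 (-0.67), Prkd1 (-0.47) and Gfra2 (-0.58), all left of 0, and most grey points lie near 0.

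Over the 5 lists together, 65 of 69 genes were tested and 3 met the thresholds, all lower in AD1 OE. Of all genes tested, 2.57% met them in either direction and 1.78% as lower. An unadjusted p under 0.05 was found for 27, against 18.6% of all genes tested. The number that met the thresholds depended on the tool. DESeq2, which called 657 genes in all, gave 8, of which 5 were lower and 3 higher. A fit without AD1 OE replicate 3, with 420 genes called in all, gave 5.

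Levels of different genes can be set beside each other only per length. In Control, the order by RPKM over all merged exons was Mef2d (14.2 ± 0.787), Mef2a (12.1 ± 0.82), Maf (9.49 ± 0.759), Mef2c (5.08 ± 0.405), Shox2 (3.65 ± 0.29), Mafa (3.57 ± 0.6) and Cux2 (3.24 ± 0.162; SD, n = 4). The ranges of the first 4 did not overlap with those of their neighbours, whereas Shox2, Mafa and Cux2 could not be ordered beyond their spread. In AD1 OE the first 4 kept this order and the last 3 came apart, with Cux2 at 4.08 ± 0.589, Shox2 at 2.02 ± 0.189 and Mafa at 1.16 ± 0.318 RPKM and no overlap between neighbours. The order of the Mef2 genes depended on the length used, since Mef2a and Mef2c have 14.7 and 15.7 kb of annotated exons but longest transcripts of 5.54 and 6.28 kb. By the longest transcript, Mef2a came first in both genotypes (32 ± 2.17 RPKM in Control and 34.3 ± 1.61 RPKM in AD1 OE). Shox2, Mafa and Cux2 again could not be separated in Control and again separated in AD1 OE.

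**Figure D5:**
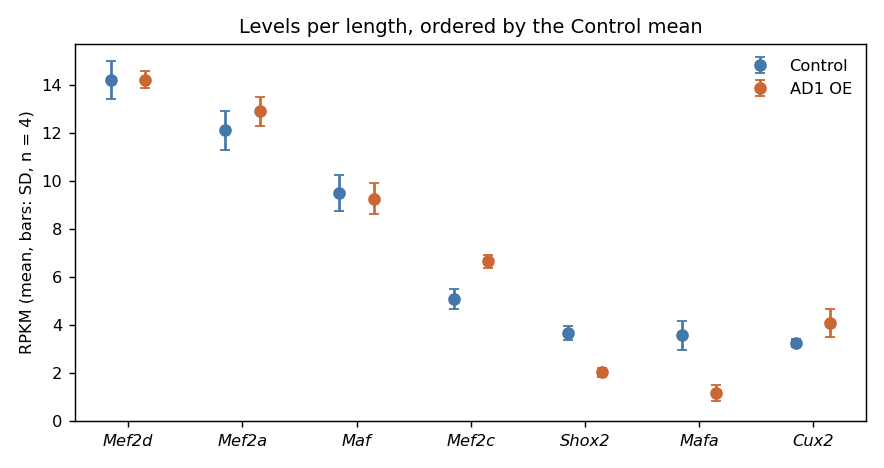
Mean level per exon length of each gene (vertical axis in RPKM, bars for the SD, n = 4) in Control and AD1 OE, ordered by the Control mean. Shox2, Mafa and Cux2 lie together between 3.24 and 3.65 RPKM in Control and apart in AD1 OE, at 2.02, 1.16 and 4.08 RPKM.

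The genes with profiles most like those of Mafa, Shox2 and Mef2c were sought among genes of at least 10 CPM by the root-mean-square difference, over the 8 libraries, of log2 CPM relative to each gene's mean. Closest to Mafa were Lgals3 (galectin-3), Dclk3 (a doublecortin-like kinase) and Pcp4l1, at 0.272, 0.292 and 0.337. Their log2 fold changes were -1.96, -1.52 and -1.34. These distances hold both the spread between replicates and the differing fold changes, whose parts were not separated. The median distance was 0.857. Closest to Shox2 were Cav2 (a caveolin), Cdh18 (a cadherin) and Chl1 (an L1 family adhesion molecule), at 0.076, 0.082 and 0.098, with a median distance of 0.444. They gave log2 fold changes of -0.79, -0.88 and -0.79. Closest to Mef2c were Cd44 (the hyaluronan receptor), Ebf3 (a transcription factor of neuronal lineages) and Gm39244, at 0.039, 0.041 and 0.049, with a median distance of 0.224. Each of these profiles is dominated by the genotype, through which likeness to a gene chosen for its difference is fixed in part.

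Genes around the 7 were also examined. The annotation places 8 genes over the spans of Maf, Shox2, Cux2, Mef2a and Mef2d, of which 4 were tested, and 14 tested genes lie next to the members on either side. None of them met the thresholds with edgeR, DESeq2 or limma-voom, and 1 had an unadjusted edgeR p under 0.05, against 18.6% of all genes tested. Lysmd4, which shares 302 exon bases with Mef2a on the opposite strand, gave a log2 fold change of -0.06 (edgeR adjusted p = 0.619), and 1700113A16Rik, which shares 531 with Mef2d, was below 1 CPM in all libraries. Gm15655, opposite Maf with 440 shared bases, had 0 counts throughout. The long noncoding gene C130071C03Rik, next to Mef2c, was at 10.6 ± 0.248 and 10.9 ± 0.774 CPM (log2 fold change -0.04, edgeR adjusted p = 0.81). The difference of Mef2c was therefore not shared by the nearest tested genes, Cetn3 (-0.01, edgeR adjusted p = 0.933) included.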

How the data were processed

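RNA of dorsal root ganglia from E18.5 embryos was sequenced after stranded poly(A) library preparation. The authors demultiplexed reads with bcl2fastq 2.20.0.422, aligned them to GRCm39 with STAR 2.7.8a, counted them per Ensembl gene with featureCounts 2.0.1 and deposited 1 file of raw counts per library (submitters' processing notes). Strand use in counting is not given in the sources used here. Symbols came from GENCODE M21, built on GRCm38, which named 52081 of 55414 IDs, and the same annotation gave exon lengths. Groups and replicate numbers came from the sample titles and genotypes.

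Counts were tested by edgeR 4.0.16 under R 4.3.3 (filterByExpr, TMM, quasi-likelihood F test, genotype as the only term, Benjamini-Hochberg adjustment over 17721 genes), and CPM and RPKM were computed from them. A call required an adjusted p below 0.005 with a log2 fold change beyond 0.25 in either direction. Alternatives were DESeq2 1.42.0, which the authors used, limma-voom 3.58.1, other scalings, filters and thresholds, a replicate block, a sex score (Y-linked genes against Xist) and leaving out each library. The test was checked on simulated counts.

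The members and lists were chosen with earlier results of these data known. Named were all members, the called genes of each list and otherwise its largest changes up to 3, overlapping genes, and the 3 profiles most like Mafa, Shox2 and Mef2c. Cux1, the Hdac genes, Ntrk2, Ntrk3, Ret, Piezo2, Cntnap2, Nefh, Calb1, Pou4f2, flanking genes and genes below the filter were named after their values were seen. Single genes of the lists and some promoter sequences are not reported here.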

Additional observations from a re-analysis of the deposited data

Results flagged for a closer look

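Mef2c in Control replicate 1, at 70.3 CPM, lay far below the other 3 Control libraries (82.2 to 83.4 CPM). The gap to its nearest neighbour was 0.905 of the range of the group. It was the single library of this kind among 14 groups of 4 libraries (7 genes in both genotypes), where chance gives about 1 in 20. Without it the log2 fold change of Mef2c was 0.33. The genotypes did not overlap with this library included, so leaving it out could not change that.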

How the results depend on the processing

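The log2 fold changes of Mafa, Shox2, Cux2, Mef2a and Mef2c kept their direction in all 16 alternatives, with ranges of -1.77 to -1.39, -0.92 to -0.81, 0.27 to 0.43, 0.06 to 0.14 and 0.33 to 0.41. Maf and Mef2d, near 0, changed sign in 2 and 4 of them. Mef2c missed the limit on the adjusted p with the sex score, and Cux2 met both thresholds only without an expression filter. The number of genes called was 455 in the reported fit. It was 747 without an expression filter, 1161 with an adjusted p below 0.05 as the only threshold, and 129 with a log2 limit of 1 beside it. DESeq2 called 657 genes, among them all 455. Leaving out 1 library gave 289 (without AD1 OE replicate 1, the deepest) to 420. Of the list genes, 3 were called in the reported fit. DESeq2 and the fit without a filter each called 8, and the adjusted p below 0.05 alone called 12. With the log2 limit of 1 edgeR called 0, while 27 had an unadjusted p under 0.05, against 18.6% of all genes tested. Leaving out 1 library gave 2 (without Control replicate 2) to 5 (without AD1 OE replicate 3). Replicate numbers did not pair the libraries, since correlations of deviations were -0.0099, -0.054, -0.035 and 0.31, and 2 of 8 libraries correlated best with their own number. With a replicate block 348 genes and 3 list genes were called. With the sex score 348 genes and 4 list genes were called. Apart from what a filter, a threshold or fewer libraries does by construction, the cause was not tested. Depth limits Mafa most, at 54 counts in its lowest library.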
